A study of Drosophila melanogaster with 54 samples.

Results

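The vacuolar ATPase is a proton pump built of 2 joined sectors. The V1 sector, of subunits A to H, sits on the cytosolic face of a membrane and hydrolyses ATP, and the V0 sector, of subunits a, c, c'', d and e, carries protons across that membrane. The pump acidifies lysosomes, endosomes and synaptic vesicles, and in insects it also sits in the plasma membrane of ion-transporting epithelia such as the Malpighian tubules, the fly's excretory organ. Several subunits have more than 1 gene copy in Drosophila melanogaster, and some copies are known mainly from the testis. The genes described here are all those of the expression table whose symbol starts with Vha, which were 33 of 13926 gene symbols. They were sorted by general knowledge into 15 widely used genes, taken as 1 per subunit and called the ubiquitous set below, and 18 further copies. Of these paralogues, 7 are known as testis-biased, 1 (Vha100-1) as neuron-biased, and 10 were left without a tissue name.

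RNA was sequenced from whole male flies 10 days old, reared at 18, 25 or 29 °C, with 3 libraries for each of 18 combinations of strain and temperature. There were 5 strains that carry a transgene for FLucDM-GFP, a mutated firefly luciferase that misfolds easily, fused to green fluorescent protein. The transgene product was directed to the cytoplasm (Cyto-FLucDM-GFP, 1 copy), to the nucleus (NLS-FLucDM-GFP, 1 or 2 copies) or to the mitochondria (Mito-FLucDM-GFP, 1 or 2 copies). The sixth strain, w1118, is the isogenic control without the transgene. The sources used here do not give the promoter of the transgene, the number of insertion lines or the number of flies in a library. No label says that the 3 libraries of a group came from separate cultures, so a p-value below measures the spread between libraries, which may be technical. Each strain is compared over 9 libraries, 3 at each temperature, and each temperature over 18 libraries, 3 of each strain.

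Levels are in TPM, transcripts per 1000000 transcripts, a share corrected for gene length. Each library summed to 1000000 TPM, so a value is relative to the rest of that library, and the read depth behind it is unknown. All 54 libraries had between 11995 and 12158 genes at 1 TPM or more. Differences are given on the log2(TPM + 1) scale from limma fitted over 12555 genes, with adjusted p-values by the Benjamini-Hochberg method and a threshold of 0.05. All 33 genes passed the filter on low values, which asked for 1 TPM in at least 3 libraries, and 32 of them were above 1 TPM in every library.

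Each ubiquitous gene that has paralogues among the members averaged more than any of its own paralogues in these flies. Averaged over 54 libraries, Vha16-1, which encodes the c subunit of the rotating proton-carrying ring, stood at 644 TPM. Vha13 (subunit G, part of the stalks that hold V1 to V0) followed at 472 TPM, then Vha55 (subunit B) at 349.7 and Vha68-2 (the catalytic subunit A) at 320.4 TPM. Vha26 (subunit E), VhaM8.9 (the accessory protein ATP6AP2), VhaPPA1-1 (c''), Vha36-1 (subunit D of the central shaft) and VhaAC45 (the accessory protein Ac45) lay between 253 and 312 TPM. Vha14-1 (subunit F), VhaSFD (subunit H), VhaAC39-1 (subunit d), VhaM9.7-b (subunit e) and Vha100-2 (the large membrane subunit a) lay between 155 and 214 TPM. Vha44 (subunit C) was the lowest of the set at 112 TPM, and neighbours in this order often overlapped in their range over libraries, for example Vha36-1 and VhaAC45. Each of the 15 genes varied little, the highest library being 1.33 times (VhaM8.9) to 1.64 times (Vha100-2) the lowest.

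Of the paralogues, only Vha68-3, the testis-biased copy of subunit A, averaged more (123 TPM) than the lowest ubiquitous gene. Vha68-1, another subunit A copy, averaged 96.7 TPM, the neuron-biased Vha100-1 78.1 TPM, and the testis-biased Vha36-2 (subunit D) 66.3 TPM. Vha100-3 (testis-biased subunit a), Vha100-5 (subunit a), VhaM9.7-c, VhaM9.7-d and VhaM9.7-a (all subunit e) averaged 35.0 to 47.1 TPM. Vha14-2 (testis-biased subunit F), Vha36-3 (subunit D), Vha16-3, Vha16-2 and the testis-biased Vha16-5 (all subunit c), Vha100-4 (subunit a), VhaPPA1-2 (testis-biased c'') and VhaAC39-2 (testis-biased subunit d) averaged 11.9 to 24.8 TPM. Vha16-4, also a subunit c copy, was the lowest member with a mean of 4.18 TPM and single libraries between 0.671 and 9.40 TPM.

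The 33 genes lie on 5 chromosome arms in the BDGP6 (dm6) build, with 12 on 3R, 8 on 2R, 6 on 2L, 5 on 3L and 2 on the X chromosome. Several copies of 1 subunit are neighbours. Vha68-2 (2L:12974322-12978607, plus strand, 5 exons in each annotated transcript) ends 178 bases before Vha68-3 (2L:12978786-12981293, plus strand, 2 exons), and Vha68-1 (2L:13000770-13004107, minus strand) begins 19476 bases after that. Vha100-4 (3R:18386841-18389805, minus strand, 4 exons) lies 517 bases from Vha100-2 (3R:18390323-18399169, minus strand, 6 exons). Vha16-3 (3L:11473291-11473972) and Vha16-2 (3L:11474958-11475552) are 985 bases apart on the plus strand, and VhaPPA1-2 (3R:14899606-14900277) and VhaPPA1-1 (3R:14902330-14904061) 2052 bases apart on the minus strand. The library kit does not mark strand, and 9 members have a gene on the opposite strand that overlaps their body, among them Vha44 with Hmgs and Vha100-4 with cona. Reads of such pairs cannot be told apart by strand, and the sources used here do not say how reads that fit more than 1 similar copy were counted, so the values of these overlapping genes and of close copies are uncertain to that extent.

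The first comparison asks how the pump genes differed between the strains with the FLucDM-GFP transgene and w1118. No strain carried a transgene for another protein, so differences due to the insertion and to the misfolding-prone protein cannot be told apart. The ubiquitous genes were higher in every transgene strain by a modest amount, save for 1 gene in 1 strain, and most testis-biased copies were lower. Over the mean of the 3 temperatures, all 15 ubiquitous genes rose in Cyto, NLS 1-copy, NLS 2-copies and Mito 1-copy flies, and 14 rose in Mito 2-copies flies. None of the 15 fell in any of these comparisons. Their median log2 difference was 0.26, 0.23, 0.20, 0.20 and 0.15 in these 5 strains, in that order. Among all 12555 genes tested, 31.1% rose in Cyto, 30.5% in NLS 1-copy, 26.1% in NLS 2-copies, 26.6% in Mito 1-copy and 19.6% in Mito 2-copies flies, with medians between -0.054 and -0.011. The 5 comparisons share the 9 w1118 libraries, and in whole flies fewer cells of a type and less RNA per cell cannot be told apart.

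**Figure D1:**
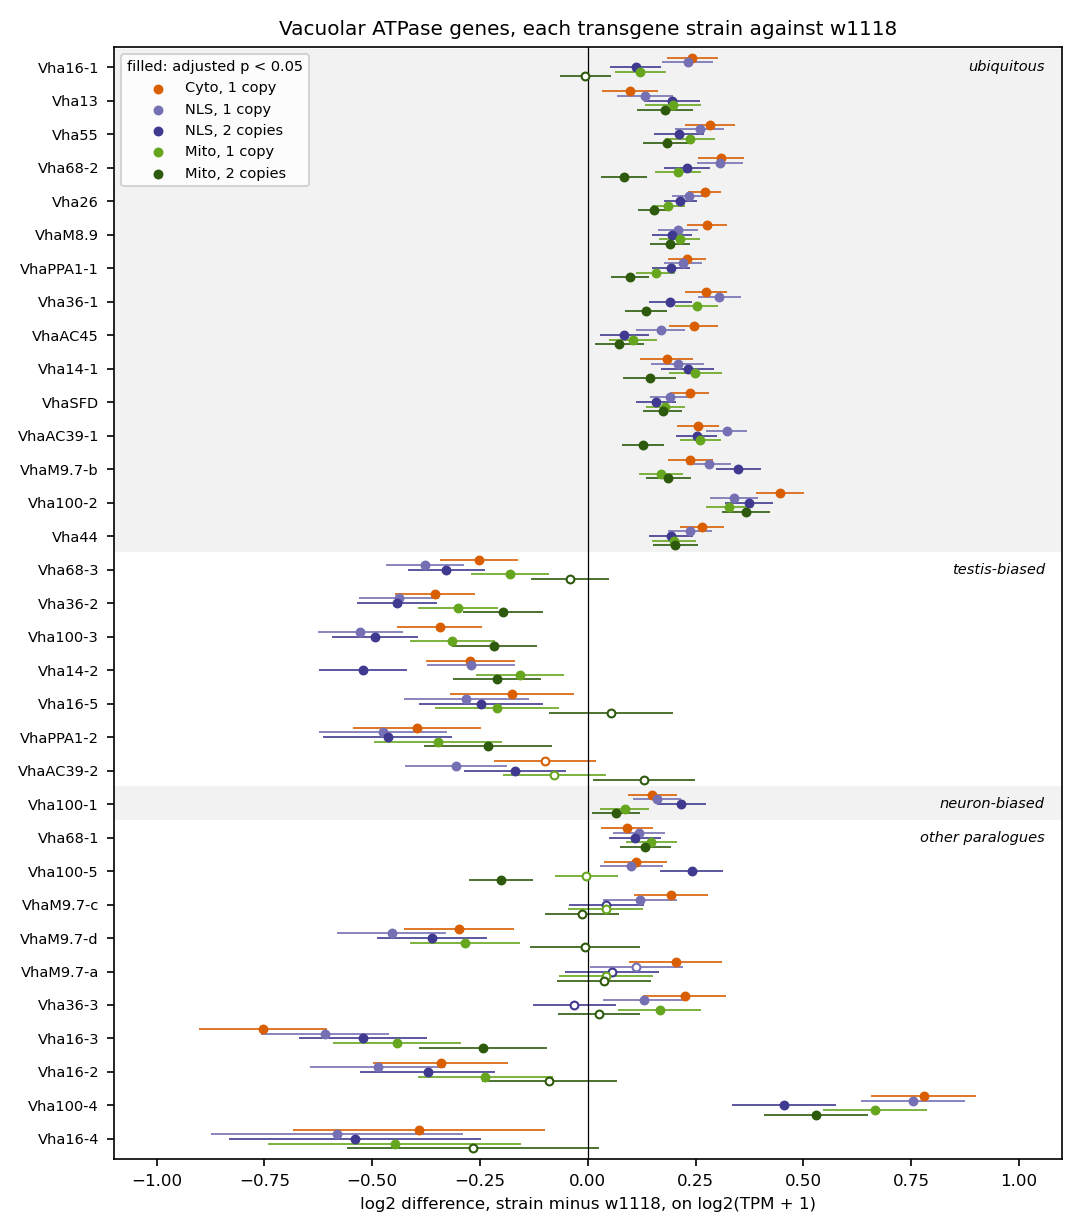
Log2 difference of each vacuolar ATPase gene (rows, grouped by class and ordered by level) between each transgene strain and w1118, the mean over 3 temperatures with its 95% confidence interval from limma. Filled points passed the threshold of 0.05 on the adjusted p-value; the ubiquitous genes lie right of 0 except Vha16-1 in Mito 2-copies flies, and the testis-biased genes mostly left of it.

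The widest rise of a ubiquitous gene was that of Vha100-2, the a subunit through which protons pass. Its libraries held 149 to 186 (median 173) TPM in Cyto, 149 to 170.3 (median 158) in NLS 1-copy, 148 to 176 (median 159.5) in NLS 2-copies, 140.1 to 182 (median 153) in Mito 1-copy, 148 to 181 (median 159) in Mito 2-copies and 114 to 132 (median 126) in w1118 flies. The 9 libraries of each transgene strain all lay above the 9 of w1118. The log2 difference was 0.45 (SE 0.0275, adjusted p = 6.57e-18) in Cyto flies and 0.33 (SE 0.0275, adjusted p = 1.17e-13) in Mito 1-copy flies, with the other 3 strains between 0.34 and 0.37. Vti1b, which overlaps Vha100-2 on the opposite strand, averaged 12.9 TPM and differed by -0.080 to 0.095 on the same scale between these strains and w1118.

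In the V1 sector, all 8 ubiquitous genes rose in all 5 strains over the mean of the 3 temperatures. Vha68-2, the catalytic subunit, held 318 to 396 (median 331) TPM in Cyto, 320.0 to 382 (median 339) in NLS 1-copy, 283 to 374 (median 333) in NLS 2-copies, 285 to 349 (median 324) in Mito 1-copy, 259 to 336 (median 302) in Mito 2-copies and 267 to 298 (median 273) in w1118 flies. Its 9 libraries in Cyto and in NLS 1-copy flies did not overlap those of w1118, while those of the other 3 strains did. The log2 difference was 0.31 (SE 0.0264, adjusted p = 1.4e-13) in Cyto and 0.085 (SE 0.0264, adjusted p = 0.00628) in Mito 2-copies flies, the largest and the smallest of the 5. At 29 °C alone, Vha68-2 in Mito 2-copies flies had a difference of the other sign, -0.036 (SE 0.0458, adjusted p = 0.580), with 262, 289 and 259 TPM in Mito 2-copies against 285, 273 and 272 TPM in w1118 flies. Vha55, which pairs with subunit A in the ATP-hydrolysing head, differed by 0.18 (Mito 2-copies) to 0.28 (Cyto), Vha26 of the outer stalk by 0.15 to 0.27 and VhaSFD, the H subunit that regulates V1, by 0.16 (NLS 2-copies) to 0.24. Vha44, Vha36-1 and Vha14-1 differed by 0.13 to 0.31 over the 5 strains. Vha13 had another order, with its smallest difference in Cyto flies (0.10) and its largest in Mito 1-copy flies (0.20).

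In the V0 sector, VhaPPA1-1 differed by 0.10 to 0.23 and VhaAC39-1, the d subunit that couples the central shaft to the ring, by 0.13 to 0.32. VhaM9.7-b, the small e subunit, was highest in NLS 2-copies flies, with a difference of 0.35 (SE 0.0256, adjusted p = 1.65e-15). Vha16-1 was the exception. It held 628 to 798 (median 686) TPM in Cyto, 638 to 769.9 (median 699.6) in NLS 1-copy, 569.7 to 725 (median 636) in NLS 2-copies, 562 to 706 (median 669.6) in Mito 1-copy, 551 to 676 (median 577) in Mito 2-copies and 539.9 to 641 (median 594) in w1118 flies, and all 5 strains overlapped w1118. It differed by -0.0061 (SE 0.0293, adjusted p = 0.874) in Mito 2-copies flies against 0.24 (SE 0.0293, adjusted p = 1.61e-09) in Cyto flies. Of the accessory proteins, VhaM8.9, known in mammals as the prorenin receptor, differed by 0.19 to 0.28 and VhaAC45 by 0.073 to 0.25. At 29 °C alone, VhaAC39-1 and VhaAC45 in Mito 2-copies flies also had differences below 0, at -0.040 (SE 0.0410, adjusted p = 0.486) and -0.016 (SE 0.0486, adjusted p = 0.833), and Vha16-1 in NLS 2-copies flies differed by -0.0010 (SE 0.0507, adjusted p = 0.989). The call of VhaAC45 in Mito 2-copies flies was lost without any of 5 single libraries (its 18 °C library 3, 25 °C library 2 or 29 °C library 2, or w1118 18 °C library 1 or 25 °C library 2), the difference then being as low as 0.061.

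At single temperatures the counts fell off in the strains with 2 copies, at 29 °C. Mito 2-copies flies had 14, 13 and 1 of the 15 ubiquitous genes higher than w1118 at 18, 25 and 29 °C, where 13.3%, 13.9% and 15% of all genes were higher. The 1 gene at 29 °C was Vha100-2, with a log2 difference of 0.42 (SE 0.0477, adjusted p = 1.79e-09). NLS 2-copies flies had 8 of the 15 higher at 29 °C, where 21.2% of all genes were. In the 3 strains with 1 copy, 12 to 15 were higher at each temperature. Of all genes, 13.6% (Mito 1-copy flies at 18 °C) to 31.1% (Cyto flies at 29 °C) were higher there. Under quantile normalization and under median-ratio scaling, the 5 counts over all temperatures stayed at 15, 15, 15, 15 and 14, but the split of all calls moved. Higher genes made up 39% of the calls in NLS 2-copies flies as deposited and 49.7% and 50.3% after scaling, and 35% in Mito 2-copies flies as deposited and 48.2% and 49.4% after scaling.

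Marker genes of several other tissues moved in the same direction. Of 8 fat body markers tested 7, 7, 7, 6 and 5 rose in Cyto, NLS 1-copy, NLS 2-copies, Mito 1-copy and Mito 2-copies flies. Their summed level lay at 2756 to 3406, 2461 to 3362, 2584 to 3602, 2511 to 3272 and 2516 to 3146 TPM in these strains, against 1856 to 2588 TPM in w1118, and a ninth marker, Fbp1, stayed below 1 TPM throughout and was not tested. Of 14 Malpighian tubule markers 8 to 10 rose and 1 to 4 fell, with sums of 484 to 676 TPM in Cyto and 439 to 563 TPM in Mito 2-copies flies, against 455 to 672 TPM in w1118. Of 10 muscle markers 6 to 8 rose and at most 1 fell. Of 11 midgut markers tested 2 to 5 rose and 4 or 5 fell, and of 13 neuron markers 1 to 7 rose and 1 to 3 fell. Of 9 photoreceptor markers 4 to 7 rose and at most 2 fell, and of 11 accessory gland markers 1 rose and 8 fell in Cyto, 4 and 1 in NLS 1-copy, 2 and 2 in NLS 2-copies, 2 and 3 in Mito 1-copy, and 2 and 2 in Mito 2-copies flies. No marker of these lists was at 0 in all libraries, and the part of the tissue makeup in the rise of the pump genes was not tested.

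The testis-biased copies went the other way. Of the 7, 6 fell in Cyto, 7 in NLS 1-copy, 7 in NLS 2-copies, 6 in Mito 1-copy and 4 in Mito 2-copies flies over the mean of the 3 temperatures, and none rose. Their mean sum in w1118 was 329, 327 and 425 TPM at 18, 25 and 29 °C. It was 297, 293 and 286 TPM in Cyto, 281, 258 and 267 in NLS 1-copy, and 268, 243 and 304 in NLS 2-copies flies. In Mito 1-copy flies it was 306, 314 and 290 TPM, and in Mito 2-copies flies 319, 293 and 386 TPM. In each strain this sum lay farthest below w1118 at 29 °C. The background was 35.3%, 38.3%, 41%, 36.7% and 36.3% of all genes lower in the same strains. Median log2 differences of the 7 were -0.27, -0.38, -0.44, -0.21 and -0.20. Vha36-2, Vha100-3, Vha14-2 and VhaPPA1-2 fell in all 5 strains.

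Vha100-3, the testis-biased a subunit, held 39.1 to 52.7 (median 44.7) TPM in Cyto, 35.8 to 50.0 (median 38.9) in NLS 1-copy, 35.8 to 50.5 (median 38.2) in NLS 2-copies, 41.0 to 51.6 (median 46.6) in Mito 1-copy, 40.5 to 61.5 (median 47.3) in Mito 2-copies and 46.5 to 79.1 (median 49.8) in w1118 flies. The 3 highest of all 54 libraries were those of w1118 at 29 °C, and every strain overlapped w1118 over the 9 libraries. The log2 difference ran from -0.53 (SE 0.0490, adjusted p = 1.46e-12) in NLS 1-copy flies to -0.22 (SE 0.0490, adjusted p = 2.35e-04) in Mito 2-copies flies. VhaPPA1-2 held 8.78 to 13.7 TPM in NLS 2-copies flies, against 14.3 to 20.1 TPM in w1118, and these did not overlap. Its difference there was -0.46 (SE 0.0736, adjusted p = 5.4e-07). The gene CG3817, which overlaps VhaPPA1-2 on the opposite strand, averaged 10.3 TPM, against 13.1 TPM for VhaPPA1-2. CG3817 was also lower in every transgene strain, by -0.19 (NLS 1-copy) to -0.056 (Mito 1-copy). The part of CG3817 reads in the values of VhaPPA1-2 was not tested. Vha36-2 differed by -0.44 (NLS 2-copies) to -0.20 (Mito 2-copies), and Vha14-2 by -0.52 (NLS 2-copies) to -0.16 (Mito 1-copy).

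Vha68-3, the most abundant of the 7, held 101 to 127 (median 117) TPM in Cyto, 97.5 to 118 (median 108) in NLS 1-copy, 98.1 to 131 (median 106) in NLS 2-copies, 109.6 to 135 (median 123) in Mito 1-copy, 112 to 173 (median 128) in Mito 2-copies and 113 to 186 (median 129.9) in w1118 flies. It fell in Cyto, both NLS and Mito 1-copy flies, with the lowest difference, -0.38 (SE 0.0447, adjusted p = 7.88e-10), in NLS 1-copy flies, and in Mito 2-copies flies it differed by -0.042 (SE 0.0447, adjusted p = 0.437). Vha16-5 fell in the first 4 strains (-0.28 to -0.18) and stood at 0.053 (SE 0.0715, adjusted p = 0.544) in Mito 2-copies flies. VhaAC39-2 fell in NLS 1-copy (-0.31) and NLS 2-copies flies (-0.17) and missed the threshold in Cyto (-0.10), Mito 1-copy (-0.078) and Mito 2-copies flies (0.13). The call for Vha16-5 in Cyto flies was lost when any of 4 single libraries was left out (Cyto 18 °C library 2, Cyto 29 °C library 1, w1118 18 °C library 1 or w1118 25 °C library 3).

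A list of 28 other genes known from the testis moved alongside them. Of the 28, 26 fell and 1 rose in Cyto flies, 27 and 1 in NLS 1-copy, 26 and 1 in NLS 2-copies, 27 and 1 in Mito 1-copy, and 16 and 2 in Mito 2-copies flies. The summed level of the list lay at 13813 to 17801, 13532 to 16008, 13655 to 17382, 14317 to 17882 and 16254 to 21279.9 TPM in these strains, against 16835 to 23663 TPM in w1118, and none of the 28 was at 0. Over the 54 libraries, Vha68-3 followed the mean log2 level of the list with Pearson's r = 0.95, and with r = 0.94 in deviations from the 18 group means. The same pair of values was 0.91 and 0.89 for Vha100-3, 0.89 and 0.75 for Vha36-2, 0.73 and 0.58 for VhaPPA1-2, and 0.68 and 0.54 for Vha16-5. For VhaAC39-2 the values were 0.67 and 0.47. Vha14-2 stood apart from these copies over all libraries, with 0.29, but not within groups, with 0.55. All these correlations are descriptions, since the libraries share strains and temperatures. The part of testis RNA content in the fall of the 7 copies was not tested.

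**Figure D2:**
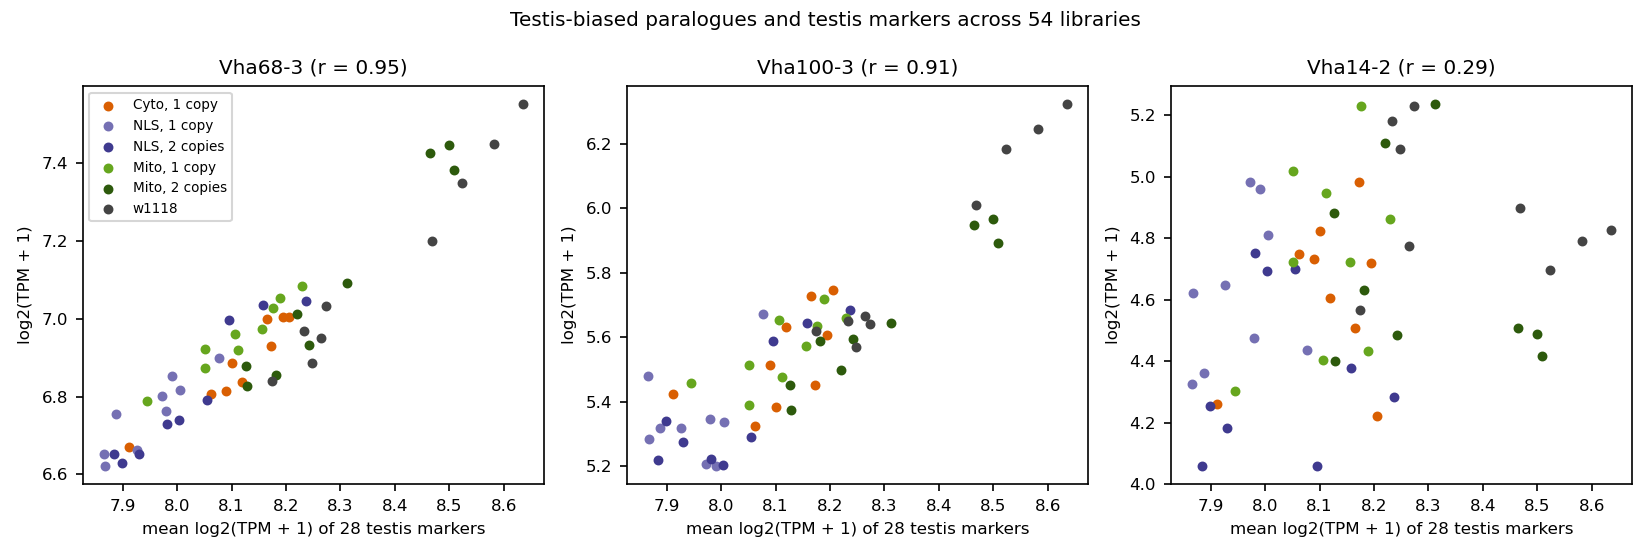
Log2 level of 3 testis-biased subunit copies (vertical axes) against the mean log2(TPM + 1) of 28 testis marker genes (horizontal axes), 1 point per library, coloured by strain, with Pearson's r over 54 libraries above each panel. Vha68-3 (r = 0.95) and Vha100-3 (r = 0.91) follow the markers, and Vha14-2 (r = 0.29) does so weakly.

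Of the 10 remaining copies, 6 rose and 4 fell in Cyto flies, 5 and 4 in NLS 1-copy, 3 and 4 in NLS 2-copies, 3 and 4 in Mito 1-copy, and 2 and 2 in Mito 2-copies flies. Of all genes, 31.1% rose and 35.3% fell in Cyto, 30.5% and 38.3% in NLS 1-copy, 26.1% and 41% in NLS 2-copies, 26.6% and 36.7% in Mito 1-copy, and 19.6% and 36.3% in Mito 2-copies flies. The counts of these copies in NLS 2-copies and Mito 1-copy flies were near that background, and those in Mito 2-copies flies near it for rises and below it for falls. The copies of the proton-carrying c subunit were on the falling side. Vha16-3 held 13.6 to 23.2 (median 15.8) TPM in Cyto, 12.0 to 23.1 (median 18.9) in NLS 1-copy, 16.7 to 22.9 (median 21.2) in NLS 2-copies, 17.9 to 25.2 (median 21.3) in Mito 1-copy, 18.8 to 28.4 (median 24.4) in Mito 2-copies and 24.4 to 33.9 (median 30.1) in w1118 flies, and its Cyto and NLS libraries all lay below those of w1118. It differed by -0.75 (SE 0.0738, adjusted p = 7.54e-12) in Cyto flies, the widest fall of any member, and by -0.24 (SE 0.0738, adjusted p = 0.00499) in Mito 2-copies flies. Its neighbour Vha16-2 fell in 4 strains, with differences of -0.49 in NLS 1-copy to -0.24 in Mito 1-copy flies, and differed by -0.090 (SE 0.0775, adjusted p = 0.333) in Mito 2-copies flies. Vha16-4 fell in the same 4 strains (-0.58 to -0.39) at levels of a few TPM, and differed by -0.27 (SE 0.145, adjusted p = 0.117) in Mito 2-copies flies. Their ubiquitous counterpart Vha16-1 rose in those 4 strains.

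The genes of subunit a did not share a direction. Vha100-4, which lies beside Vha100-2, rose most of all members. It held 15.3 to 19.6 (median 18.3) TPM in Cyto, 13.2 to 22.3 (median 18.3) in NLS 1-copy, 8.80 to 19.8 (median 15.7) in NLS 2-copies, 13.5 to 19.3 (median 15.8) in Mito 1-copy, 12.3 to 16.8 (median 15.1) in Mito 2-copies and 7.31 to 13.2 (median 10.8) in w1118 flies, and its log2 difference ran from 0.46 (SE 0.0599, adjusted p = 1.12e-08) in NLS 2-copies to 0.78 (SE 0.0599, adjusted p = 6.71e-15) in Cyto flies. The gene cona, which overlaps Vha100-4 on the opposite strand, went the other way, with differences of -0.47 to -0.15. Vha100-1, the form known from synaptic vesicles of Drosophila neurons, rose in all 5 strains by small amounts, from 0.065 (SE 0.0278, adjusted p = 0.0451) in Mito 2-copies to 0.22 (SE 0.0278, adjusted p = 6.52e-09) in NLS 2-copies flies. The Mito 2-copies call was lost without any of 12 single libraries, with differences as low as 0.055. The summed level of 13 neuron markers was 284 to 392 TPM in NLS 2-copies and 284 to 358 TPM in Mito 2-copies flies, against 269 to 363 TPM in w1118. Vha100-5 rose in Cyto (0.11), NLS 1-copy (0.10) and NLS 2-copies flies (0.24), fell in Mito 2-copies flies (-0.20) and differed by -0.0031 (SE 0.0366, adjusted p = 0.949) in Mito 1-copy flies, averages that join opposite differences at single temperatures, as given below.

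Of the other copies, Vha68-1 rose in all 5 strains by 0.091 to 0.15, although in Cyto flies at 18 °C alone it differed by -0.083 (SE 0.0511, adjusted p = 0.186). The small e subunits were split: VhaM9.7-d fell in Cyto, both NLS and Mito 1-copy flies (-0.46 to -0.28), while VhaM9.7-c rose in Cyto (0.19) and NLS 1-copy flies (0.12) and VhaM9.7-a in Cyto flies (0.20). The NLS 1-copy call of VhaM9.7-c was lost without the third 25 °C library of w1118. This gene overlaps CG18675 on the opposite strand (mean 56.8 TPM, differences of -0.37 to -0.19). It also overlaps Teh2 on the same strand (15.4 TPM, -0.037 to 0.22). VhaM9.7-d, although not placed in the testis-biased class, followed the testis markers with r = 0.80 over 54 libraries and 0.53 within groups. Vha16-2 did so with 0.74 and 0.46, and Vha16-3 with 0.65 and 0.47. Vha36-3 rose in Cyto (0.22), NLS 1-copy (0.13) and Mito 1-copy flies (0.17).

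**Figure D3:**
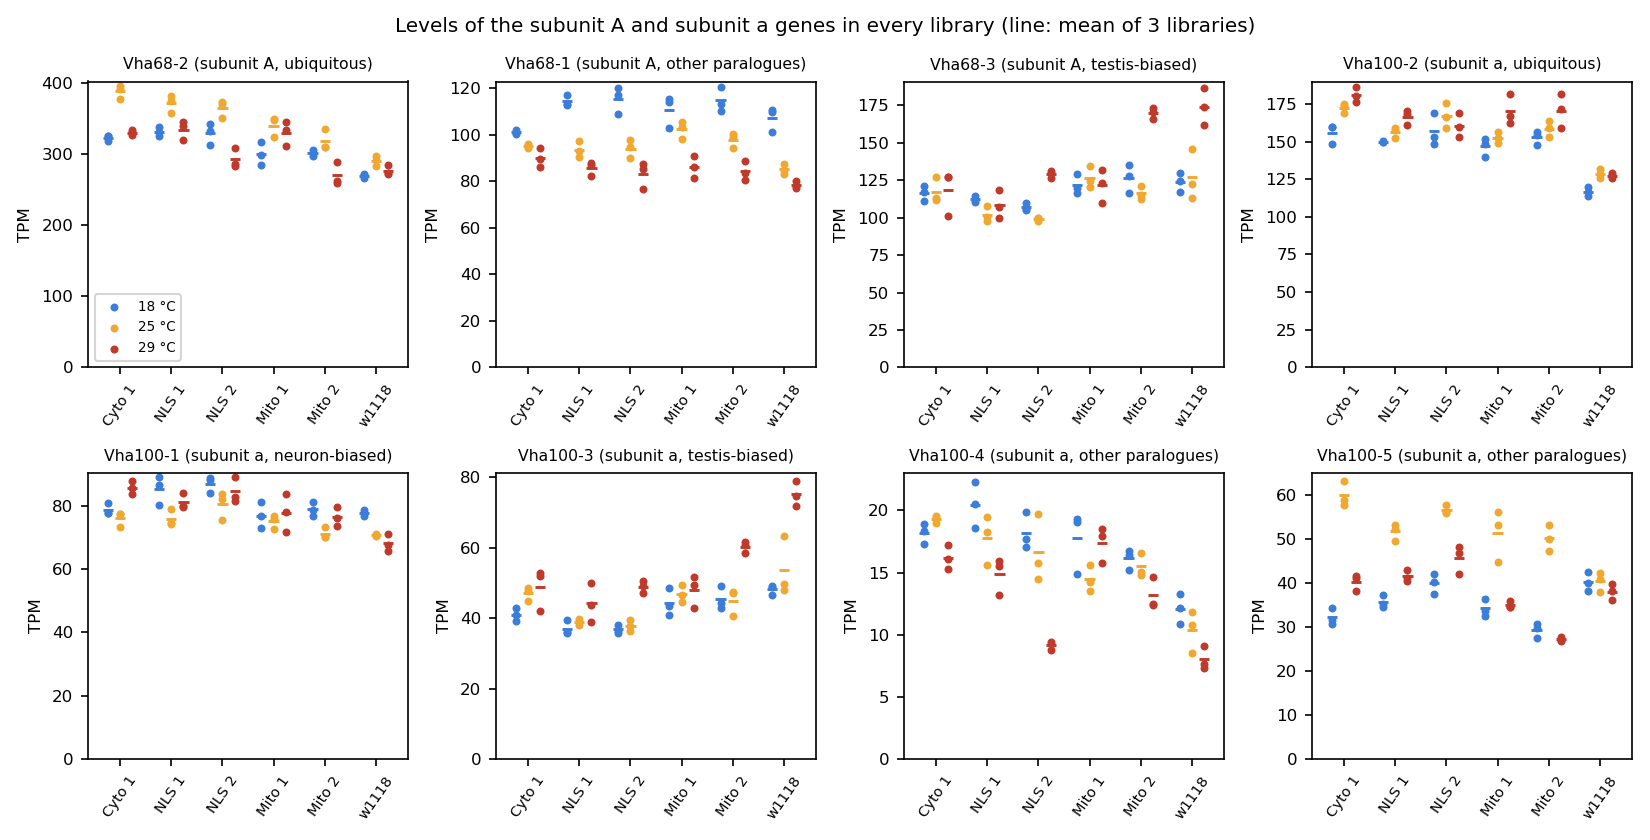
TPM of the 3 subunit A genes and the 5 subunit a genes in every library, by strain (Cyto 1, NLS 1, NLS 2, Mito 1 and Mito 2 with the number of transgene copies, then w1118) and rearing temperature (colour), with the mean of 3 libraries as a line. Vha100-2 is higher in every transgene strain, Vha68-2 too except at 29 °C in Mito 2-copies flies, Vha68-3 and Vha100-3 are high at 29 °C in w1118 and Mito 2-copies flies, and Vha100-5 is highest at 25 °C in each transgene strain but level in w1118.

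Set against the ubiquitous gene of the same subunit, 14 of 18 paralogues had a lower median ratio in all 5 transgene strains than in w1118, and 1 (Vha100-4) a higher one. The ratio of Vha68-3 to Vha68-2 had a median log2 value of -1.52 in Cyto, -1.60 in NLS 1-copy, -1.64 in NLS 2-copies, -1.34 in Mito 1-copy and -1.26 in Mito 2-copies flies, against -1.04 in w1118 (9 libraries each). The ratio of Vha100-3 to Vha100-2 had medians of -1.86, -2.01, -2.07, -1.71 and -1.75 in the same order, against -1.22 in w1118. The ratio of Vha36-2 to Vha36-1 had medians of -2.24 in NLS 2-copies and -1.91 in Mito 2-copies flies, against -1.66 in w1118. For the ring, Vha16-3 to Vha16-1 had a median of -5.52 in Cyto flies, against -4.33 in w1118. Vha100-4 was unlike these, its ratio to Vha100-2 having a median of -3.20 in Cyto flies, against -3.54 in w1118. These ratios are descriptions with no test. Since the ubiquitous genes mostly rose, a lower ratio does not show that the copy itself fell. Vha100-1 rose in all 5 strains, yet its ratio to Vha100-2 had medians of -1.13 to -0.93, against -0.85 in w1118. Copies of 1 subunit also share the same ubiquitous gene in the ratio.

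Summed over the 15 ubiquitous genes, libraries averaged 4348 ± 213 TPM in Cyto, 4309 ± 130.2 in NLS 1-copy, 4202 ± 270.2 in NLS 2-copies, 4190.1 ± 157 in Mito 1-copy and 4019 ± 234 in Mito 2-copies flies, against 3660.0 ± 79.8 TPM in w1118 (SD, n = 9 each). The 7 testis-biased copies summed to 292 ± 20.4, 269 ± 15.4, 272 ± 27.0, 303 ± 20.7 and 332 ± 43.6 TPM, against 360.5 ± 54.4 TPM in w1118. All 18 paralogues together were 14.2 ± 0.561% of the summed level of the 33 genes in Cyto, 13.7 ± 0.670% in NLS 1-copy, 14.1 ± 1.04% in NLS 2-copies, 14.7 ± 0.685% in Mito 1-copy and 15.8 ± 1.29% in Mito 2-copies flies, against 17.4 ± 1.01% in w1118.

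**Figure D4:**
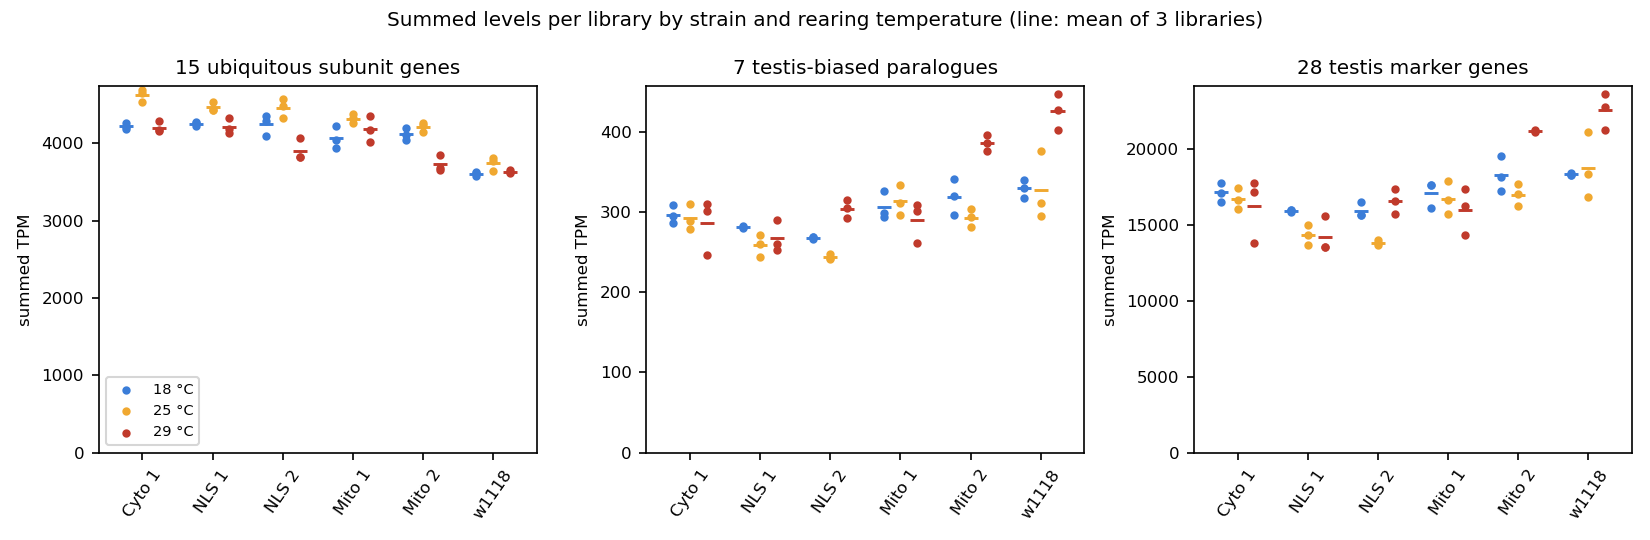
Summed TPM per library of the 15 ubiquitous genes, the 7 testis-biased copies and 28 testis marker genes, by strain (number of transgene copies after the name) and rearing temperature (colour), with the mean of 3 libraries as a line. The mean ubiquitous sum is lowest in w1118 at each temperature, and the testis-biased and marker sums are highest at 29 °C in w1118 and Mito 2-copies flies.

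With rearing temperature, 22 of the 33 pump genes passed the test at 29 against 18 °C, 10 higher and 12 lower. Averaged over the 6 strains, 4 ubiquitous genes rose and 6 fell at 29 °C against 18 °C, where 42.9% of all genes rose and 34.9% fell. The members' shares were near or below these, so the counts say nothing particular to the pump genes. By sector, 5 of 8 V1 genes fell and none rose, while in V0 4 of 5 rose and 1 fell. This split was not tested. Vha44, the C subunit that leaves the pump when V1 and V0 come apart, held 106 to 136 (median 130.2), 94.2 to 124 (median 114) and 89.2 to 107 (median 97.3) TPM at 18, 25 and 29 °C. It fell at both steps, and at 29 against 18 °C it differed by -0.37 (SE 0.0180, adjusted p = 3.39e-22). Vha36-1 differed by -0.34 (SE 0.0173, adjusted p = 2.3e-21) and VhaSFD by -0.24 (SE 0.0160, adjusted p = 1.42e-17). On the rising side Vha100-2 differed by 0.15 (SE 0.0195, adjusted p = 5.32e-09) and VhaAC39-1 by 0.11 (SE 0.0168, adjusted p = 3.73e-07), with smaller differences for Vha16-1 (0.053) and VhaM9.7-b (0.044). VhaM9.7-b turned to -0.018, not passing, under quantile normalization, and its call was lost without any of 4 single libraries (NLS 1-copy 18 °C library 1 or 29 °C library 1, Mito 1-copy 18 °C library 2 or w1118 29 °C library 2). Under median-ratio scaling, 2 ubiquitous genes rose and 8 fell.

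Averaged over the 6 strains, most ubiquitous genes were highest at the middle temperature. At 25 against 18 °C, 10 rose and 3 fell (31.8% and 32.4% of all genes), and at 29 against 25 °C 1 rose and 13 fell (36.3% and 26.7% of all genes). Vha16-1 held 539.9 to 675 (median 606), 594 to 798 (median 689) and 553 to 709 (median 626) TPM at 18, 25 and 29 °C, and VhaAC39-1 held 133 to 177 (median 165), 155 to 205 (median 193) and 149 to 198 (median 178) TPM. The ranges overlapped between temperatures, as each joins 6 strains. Vha100-2 was the 1 gene that rose at both steps. The strains differed in this: at 29 against 25 °C, 13 fell in Mito 2-copies (14.5% of all genes), 12 in NLS 2-copies (16%) and 9 in Cyto flies (11.8%). In NLS 1-copy flies 4 fell (9.77%), and in Mito 1-copy 3 (16.9%). In w1118 alone, 3 rose and 1 fell at 25 against 18 °C (11.7% and 16.4%). At 29 against 25 °C, 0 rose and 3 fell there (23.5% and 15.7%). At 29 against 18 °C, 3 ubiquitous genes rose and 4 fell in w1118, where 28.9% and 27.1% of all genes did. Midgut markers (9 of 11 higher at 29 against 18 °C, 2 lower), photoreceptor markers (7 of 9 higher, 2 lower), muscle markers (9 of 10 lower, 1 higher) and accessory gland markers (10 of 11 lower, 1 higher) moved with temperature too, and their part was not tested.

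**Figure D5:**
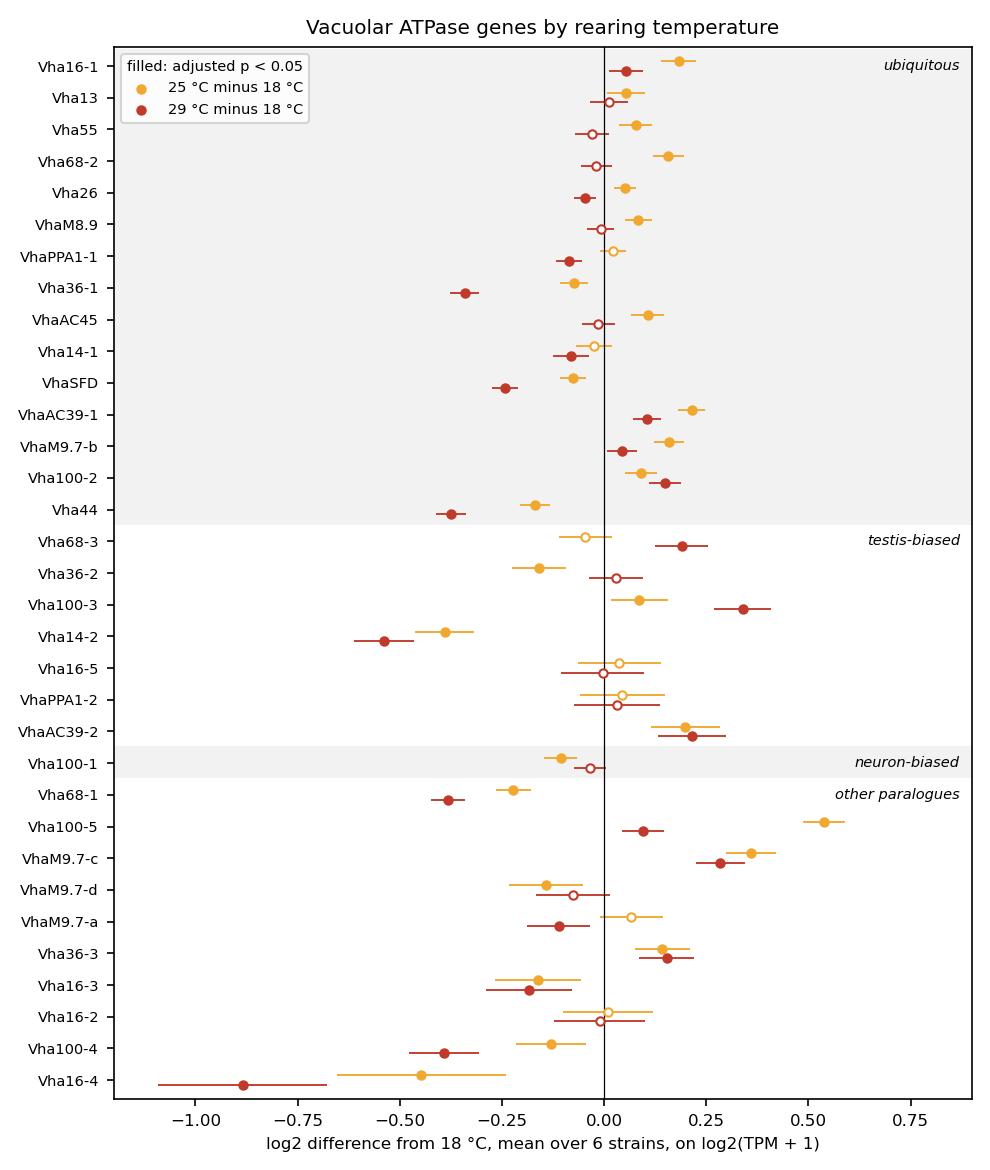
Log2 difference of each vacuolar ATPase gene from 18 °C at 25 °C and at 29 °C, the mean over 6 strains with its 95% confidence interval from limma, rows grouped by class and ordered by level. Filled points passed the threshold of 0.05 on the adjusted p-value; Vha16-4, Vha14-2, Vha100-4, Vha68-1 and Vha44 lie farthest left at 29 °C, and Vha100-5 lies farthest right at 25 °C.

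Of the 18 further copies, 6 rose and 6 fell at 29 against 18 °C, shares below the 42.9% and near the 34.9% of all genes. Vha16-4 differed by -0.88 (SE 0.102, adjusted p = 2.83e-10), its libraries holding 3.53 to 9.40 (median 5.86), 1.97 to 6.94 (median 3.94) and 0.671 to 5.17 (median 2.93) TPM at 18, 25 and 29 °C. Vha14-2 differed by -0.54 (SE 0.0360, adjusted p = 2.48e-17), Vha100-4 by -0.39 (SE 0.0424, adjusted p = 4.98e-11) and Vha68-1 by -0.38 (SE 0.0208, adjusted p = 2.67e-20). All 4 fell at each step. On the other side, Vha100-3 rose by 0.34 (SE 0.0346, adjusted p = 1.05e-11), VhaM9.7-c by 0.28 (SE 0.0302, adjusted p = 2.76e-11), VhaAC39-2 by 0.21 (SE 0.0417, adjusted p = 1.28e-05) and Vha68-3 by 0.19 (SE 0.0316, adjusted p = 9.47e-07). Of the 28 testis markers 14 rose and 3 fell at 29 against 18 °C. Within subunit A the 3 genes thus parted with temperature: Vha68-1 fell, Vha68-3 rose and Vha68-2 differed by -0.019 (SE 0.0187, adjusted p = 0.347). Vha100-5 was highest at 25 °C, where it exceeded 18 °C by 0.54 (SE 0.0259, adjusted p = 1.37e-21), and at 29 °C its difference from 25 °C was -0.44.

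Whether the strains differ in the same way at each temperature was asked with an F test of the interaction. It called 20 of the 33 genes (7 of 15 ubiquitous, 6 of 7 testis-biased, Vha100-1 and 6 of the 10 remaining copies), close to the 56% of all genes that it called. The member with the smallest adjusted p was Vha100-5, at 5.00e-09. In Cyto flies it held 30.7, 31.7 and 34.4 TPM at 18 °C, 59.0, 63.2 and 57.9 TPM at 25 °C, and 41.2, 38.3 and 41.5 TPM at 29 °C. In w1118 it held 38.2, 40.0 and 42.5 TPM at the lowest, 41.0, 42.3 and 38.1 TPM at the middle and 38.1, 39.8 and 36.1 TPM at the highest temperature. The gene thus peaked at 25 °C in Cyto flies and was level in w1118, and Mito 2-copies flies had the same peak, with 27.5, 29.9 and 30.6 TPM at 18 °C, 50.1, 53.2 and 47.2 TPM at 25 °C, and 26.9, 27.1 and 27.8 TPM at 29 °C. Against w1118 the Cyto difference was -0.31 (SE 0.0633, adjusted p = 9.65e-05) at 18 °C, 0.56 (SE 0.0633, adjusted p = 1.3e-09) at 25 °C and 0.085 (SE 0.0633, adjusted p = 0.250) at 29 °C.

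Contrasts of the difference at 29 °C minus that at 18 °C were fitted for each strain against w1118 and were added after the data had been seen. Vha16-3, Vha14-2 and VhaPPA1-2, which the F test called, passed in none of them. In Cyto, NLS 1-copy and Mito 1-copy flies no more than 1 ubiquitous gene passed (VhaPPA1-1, higher, in Mito 1-copy flies), whereas 4 were lower in NLS 2-copies flies and 7 in Mito 2-copies flies. The background in these strains, higher and lower, was 17.9% and 14.4% in Cyto, 9.77% and 15.5% in NLS 1-copy, 13.1% and 15% in Mito 1-copy, 10.5% and 9.4% in NLS 2-copies and 9.36% and 6.09% in Mito 2-copies flies. Vha68-2 held 302, 297 and 306 TPM at 18 °C and 262, 289 and 259 TPM at 29 °C in Mito 2-copies flies, against 267, 271 and 272 TPM and 285, 273 and 272 TPM in w1118. The 2 strains were apart at 18 °C and overlapped at 29 °C, and the change in the difference was -0.20 (SE 0.0647, adjusted p = 0.0311). VhaAC39-1 changed by -0.29 (SE 0.0580, adjusted p = 3.2e-04) in the same strain and VhaM9.7-b by -0.21 (SE 0.0628, adjusted p = 0.0169). The count of 7 in Mito 2-copies flies went to 4 without the first 29 °C library of that strain, and the count of 4 in NLS 2-copies flies was 0 under quantile normalization, 7 under median-ratio scaling, 2 without the first and 7 without the third 18 °C library of that strain. Higher genes made up 55.4%, 52.9% and 60.6% of all calls in Cyto, NLS 2-copies and Mito 2-copies flies as deposited, 51.4%, 53.3% and 50.0% under quantile normalization, and 35.6%, 35.7% and 48.8% under median-ratio scaling. In Cyto flies 2 ubiquitous genes were then higher under the first scaling and 4 lower under the second.

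Of the 7 testis-biased copies, 3 were lower at 29 minus 18 °C in each of the Cyto, NLS 1-copy and Mito 1-copy strains (Vha68-3, Vha36-2 and Vha100-3), and 1 was lower in NLS 2-copies flies. In Mito 2-copies flies none was lower and 1 was higher (Vha16-5, at 0.52 (SE 0.175, adjusted p = 0.0348)), and VhaPPA1-2, Vha14-2 and VhaAC39-2 passed in no strain. Vha68-3 held 112, 110.4 and 115 TPM at 18 °C and 99.6, 118 and 107 TPM at 29 °C in NLS 1-copy flies, against 129.9, 117 and 124 TPM and 186, 162 and 174 TPM in w1118. It was nearly level in NLS 1-copy flies and higher at 29 °C in w1118, a change in the difference of -0.54 (SE 0.110, adjusted p = 3.79e-04). The change was -0.47 in Cyto and -0.49 in Mito 1-copy flies, which passed, and -0.21 (SE 0.110, adjusted p = 0.163) in NLS 2-copies and -0.064 (SE 0.110, adjusted p = 0.762) in Mito 2-copies flies. Vha36-2 and Vha100-3 passed in the same direction in the 3 strains with 1 copy, at -0.60 and -0.38 in Cyto flies, and Vha36-2 also in NLS 2-copies flies (-0.39). The testis markers did likewise, 21 of 28 being lower in Cyto, 22 in NLS 1-copy and 19 in Mito 1-copy flies, against 7 in NLS 2-copies and 1 in Mito 2-copies flies. Of the other members, VhaM9.7-c was higher in Cyto (0.34), NLS 1-copy (0.43) and Mito 1-copy flies (0.40).

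Between 2 copies and 1 copy of the transgene the differences were small and lay mostly at 29 °C. In NLS flies 1 ubiquitous gene rose (VhaM9.7-b, a call lost without any of 11 single libraries) and 5 fell, where 12.8% and 15.4% of all genes did. In Mito flies none rose and 6 fell (0 and 10 under quantile normalization, 1 and 4 under median-ratio scaling), with 18.9% and 23.3% of all genes. The largest ubiquitous difference was -0.12 (SE 0.0293, adjusted p = 0.00159) for Vha16-1 in NLS flies, and -0.13 (SE 0.0237, adjusted p = 2.05e-05) for VhaAC39-1 in Mito flies. At 29 °C alone, 11 of the 15 fell in Mito flies, where 17.6% of all genes did, and 6 fell in NLS flies, where 8.17% did. VhaAC39-1 at 29 °C held 154, 153 and 149 TPM in Mito 2-copies flies, against 194, 187 and 179.9 TPM in Mito 1-copy flies, without overlap. The difference was -0.30 (SE 0.0410, adjusted p = 3.47e-07). At 18 and at 25 °C alone at most 1 ubiquitous gene passed in either direction in each pair. Of all genes in Mito flies, 3.86% rose and 5.07% fell at 18 °C, and 4% and 15.2% at 25 °C. In NLS flies 4.78% rose and 7.81% fell at 18 °C, and 4.79% and 5.22% at 25 °C. The ubiquitous counts were thus near or below the shares of all genes there. The difference between temperatures was not itself tested for copies.

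Several paralogues rose with the second transgene copy at 29 °C, more of them in Mito than in NLS flies. In Mito flies at 29 °C, 8 paralogues rose and 2 fell, where 23.7% of all genes rose and 17.6% fell. Vha16-5 held 24.1, 27.7 and 23.4 TPM in Mito 2-copies flies, against 11.9, 13.2 and 16.7 TPM in Mito 1-copy flies, a difference of 0.81 (SE 0.124, adjusted p = 1.73e-06). Vha68-3 held 166, 173 and 171 TPM, against 109.6, 132 and 123 TPM, a difference of 0.48 (SE 0.0774, adjusted p = 3.68e-06). Neither pair of groups overlapped. Over the 3 temperatures 3 testis-biased copies rose, and 26 of the 28 testis markers rose and none fell. The fallers at 29 °C were Vha100-4 (-0.38) and Vha100-5 (-0.35). In NLS flies at 29 °C alone, 4 paralogues rose and 2 fell, where 10.7% and 8.17% of all genes did. Over all temperatures Vha100-4 fell with the second NLS copy, with a difference of -0.30 (SE 0.0599, adjusted p = 1.6e-04), and Vha14-2 with -0.25 (SE 0.0509, adjusted p = 1.86e-04). Leaving out single libraries moved the NLS count of 10 members to between 6 and 11, the 6 being reached without the third 18 °C library of the 2-copies strain.

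Between sites of the protein, compared among the 1-copy strains, fewer members passed than against w1118. NLS against Cyto flies called 7 members. VhaAC39-1 rose (0.067), and Vha100-2, VhaAC45, VhaM8.9 and the testis-biased Vha68-3, Vha100-3 and VhaAC39-2 fell (-0.21 to -0.066), where 9.51% and 22.6% of all genes rose and fell. Mito against Cyto flies called 13: 8 ubiquitous genes fell, with differences of -0.063 (VhaM8.9) to -0.14 (VhaAC45), 1 rose (Vha13, 0.10), VhaM9.7-a, VhaM9.7-c and Vha100-5 fell and Vha16-3 rose by 0.31 (SE 0.0738, adjusted p = 0.00131). Of all genes, 9.69% rose and 16.8% fell in that comparison. Mito against NLS flies called 13, with 5 ubiquitous genes lower (-0.11 to -0.061) and 4 testis-biased copies higher (0.14 to 0.23). Of all genes, 11.8% were lower and 19.2% higher. Of the 28 testis markers 22 fell in NLS against Cyto flies, and 22 rose in Mito against NLS flies.

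These counts moved with the scaling. Higher genes made up 29.6%, 36.6% and 61.9% of all calls in the 3 comparisons as deposited, 48.2%, 47.3% and 50.7% under quantile normalization and 49.6%, 47.3% and 50.0% under median-ratio scaling. The 8 ubiquitous genes lower in Mito against Cyto flies became 5 under either scaling, and in NLS against Cyto flies 1 higher and 3 lower became 2 and 0, or 2 and 1. Without the second 25 °C library of NLS 1-copy flies the 7 members of NLS against Cyto became 4, and without the second 25 °C library of Mito 1-copy flies the 13 members of Mito against NLS became 8.

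Genes that serve the pump or the lysosomes it acidifies were followed on a list of 45. In Cyto flies 28 rose and 3 fell, in NLS 1-copy 30 and 8, in NLS 2-copies 16 and 7, in Mito 1-copy 18 and 10, and in Mito 2-copies 6 and 12. Of all genes, 31.1% rose and 35.3% fell in Cyto, and 30.5% and 38.3% in NLS 1-copy flies. The shares were 26.1% and 41% in NLS 2-copies, 26.6% and 36.7% in Mito 1-copy, and 19.6% and 36.3% in Mito 2-copies flies. The median log2 difference was 0.15, 0.11, 0.030, 0.051 and -0.022. In Mito 2-copies flies both counts of the list lay below the shares of all genes, whereas 14 ubiquitous subunits rose. Mitf, the fly relative of TFEB and a known activator of lysosomal and pump genes in Drosophila, rose in Cyto flies by 0.36 (SE 0.0335, adjusted p = 2.64e-12) and in NLS 1-copy and Mito 1-copy flies by 0.19 and 0.18. It differed by 0.064 (SE 0.0335, adjusted p = 0.0909) in NLS 2-copies and 0.075 (SE 0.0335, adjusted p = 0.0553) in Mito 2-copies flies. Rbcn-3B, a homologue of the rabconnectins that help V1 join V0, rose in Cyto (0.27), NLS 1-copy (0.21) and Mito 1-copy flies (0.17). Rbcn-3A rose in Cyto (0.16) and NLS 1-copy flies (0.16) and fell in Mito 2-copies flies (-0.17).

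The largest rises on that list were those of lt, a subunit of the HOPS tethering complex, and of cathD, the cathepsin D protease. The gene lt differed by 0.60 (SE 0.0292, adjusted p = 1.87e-21) in Cyto, 0.53 in NLS 1-copy and 0.54 in Mito 1-copy flies, and cathD by 0.48 (SE 0.0289, adjusted p = 3.69e-18) in NLS 2-copies and 0.41 in Mito 2-copies flies. Nha2, a sodium-proton antiporter, rose by 0.36, 0.38, 0.39, 0.20 and 0.25 in Cyto, NLS 1-copy, NLS 2-copies, Mito 1-copy and Mito 2-copies flies. The largest falls were those of LManV, a lysosomal alpha-mannosidase, from -0.77 (SE 0.0996, adjusted p = 1.15e-08) in Mito 1-copy to -0.39 (SE 0.0996, adjusted p = 6.5e-04) in NLS 2-copies flies, and of LManII, another alpha-mannosidase, with -0.41 in NLS 2-copies and -0.57 in Mito 2-copies flies. At 29 against 18 °C, 19 of the 45 rose and 17 fell, near the 42.9% and 34.9% of all genes. These counts thus say nothing particular to the list. LManV (1.08), LManVI (0.88) and Gba1b, a glucocerebrosidase (0.68), rose most, and Nha1 (-0.40), Ppt1 (-0.36) and Mitf (-0.31) were among the largest falls.

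Among themselves the 15 ubiquitous genes moved together across the 54 libraries, the median Pearson's r of their 105 pairs being 0.66 (0.14 to 0.95) on the log2 scale. The 21 pairs of testis-biased copies had a median of 0.58 (-0.10 to 0.90), and pairs of 1 ubiquitous and 1 testis-biased gene a median of -0.46 (-0.80 to 0.47). Against the mean of the other 14 ubiquitous genes, Vha26 (r = 0.95), Vha55 (0.92) and VhaPPA1-1 (0.92) were nearest and Vha13 (0.54) and Vha44 (0.58) farthest. Of the copies, Vha100-4 came closest to that mean with r = 0.78. Within the 18 groups, with strain and temperature means taken off, the order differed: r was 0.80 for Vha68-2, 0.79 for VhaAC39-1, 0.69 for Vha55, 0.65 for Vha44, 0.64 for VhaPPA1-1, 0.57 for Vha26 and 0.22 for Vha13, with Vha14-1 lowest of the ubiquitous set at 0.20. Of the copies, Vha100-1 (0.71) and Vha68-1 (0.66) were then nearest, and Vha100-4 had 0.30. Of 12522 other genes, whose median r with the ubiquitous mean was -0.024, the 10 highest were CG31102, ringer, Fas2, CG1907, Oda, tau, stumps, CG7461, Tsp29Fb and Inx2, at 0.88 to 0.86. Within the groups these 10 ranged between 0.033 (ringer) and 0.62 (stumps). These values describe likeness over libraries that share strains and temperatures.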

How the data were processed

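RNA libraries were made from total RNA of whole flies with an Illumina TruSeq kit, version 2, per the labels' protocols. The authors deposited 1 table of TPM values for 54 libraries, and the build was BDGP6 (dm6), per the submitters' processing notes. The sources used here name no aligner or read depth, nor how reads that match similar copies were counted. TPM values were taken as deposited, with an added pseudocount of 1 before the log2 transform. A gene was kept if 3 or more libraries reached 1 TPM.

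Differences were fitted with limma 3.58.1 (R 4.3.3), 18 group means and an intensity trend, with Benjamini-Hochberg adjustment over all 12555 genes of each comparison and a threshold of 0.05. The fit was tested on simulated data. The rule for named genes took every member with its level and, in each comparison, up to 8 members with the largest rise and fall among those that passed, with the other genes of their subunit; against w1118 further members are given values so that all are covered. Members and gene lists were chosen with earlier results of these data known, and lists come from general knowledge. Alternatives were another pseudocount, no filter, quantile and median-ratio scaling, the replicate number as a block, single temperatures, w1118 alone, only the strains compared and each library left out. The contrasts of 29 minus 18 °C were added after the data had been seen. No genome sequence was used.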

Additional observations from a re-analysis of the deposited data

Results flagged for a closer look

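The difference between strains changed with rearing temperature for 20 of the 33 genes by the F test of the interaction in limma (adjusted p over 12555 genes), a share close to the 56% of all genes. The adjusted p was 5.00e-09 for Vha100-5, 3.17e-05 for Vha68-3, 3.66e-05 for Vha100-4, 3.36e-04 for Vha36-2, 3.63e-04 for Vha26, 6.96e-04 for Vha16-5, 7.5e-04 for Vha68-2, 0.00105 for VhaM9.7-b, 0.00114 for VhaAC39-1, 0.00376 for VhaPPA1-2, 0.00576 for Vha100-3, 0.00693 for Vha68-1, 0.0114 for Vha14-2, 0.0129 for VhaPPA1-1, 0.0215 for Vha16-3, 0.0253 for Vha100-1, 0.0294 for VhaM9.7-c, 0.0319 for Vha36-1, 0.0353 for VhaM8.9 and 0.0373 for VhaM9.7-d. Vha100-5 had the smallest value. At 25 °C it stood in Cyto flies at a mean of 60.0 ± 2.83 TPM, against 40.4 ± 2.15 TPM in w1118 (SD, n = 3 each). At 18 °C it averaged 32.2 ± 1.89 TPM in Cyto flies and 40.2 ± 2.19 TPM in w1118.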

How the results depend on the processing

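With a pseudocount of 0.1, with no filter on low values and with the replicate number as a block, no count or call against w1118, between copies, sites or temperatures moved past its limit; with the block, 32 members passed in Cyto flies, as without it. In 4 of 153 pairs of groups all 3 same-number correlations exceeded 0.1, so no general pairing by replicate number was seen. Single correlations ran from -0.44 to 0.36, and this count cannot exclude a pairing within some groups.

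Counts of members that passed moved mainly at single temperatures, where each group has 3 libraries. In Cyto flies against w1118 the 32 became 20 at 18 °C, in NLS 2-copies flies the 30 became 17 at 29 °C, in Mito 1-copy flies the 29 became 16 at 18 °C and 19 at 25 °C, and in Mito 2-copies flies the 23 became 7 at 29 °C. The 10 between NLS copies became 1 at 18 °C and 1 at 25 °C, and the 13 between Mito copies became 1, 2 and 21 at 18, 25 and 29 °C. NLS against Cyto went to 2, 4 and 1 members, Mito against Cyto (13) to 2 at 18 and 2 at 29 °C, and Mito against NLS (13) to 5, 8 and 1, and to 8 with the libraries of those strains only. In w1118 alone, 8 members passed at 25 against 18 °C (26 over all strains) and 8 at 29 against 25 °C (25). The count for 29 minus 18 °C in NLS 2-copies flies was 6, and 10 under median-ratio scaling.

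Leaving out 1 library at a time moved some counts of members. NLS 2-copies against 1-copy gave 6 to 11 (6 without the third 18 °C library of the 2-copies strain), NLS against Cyto 4 to 8 (4 without the second 25 °C library of NLS 1-copy flies), Mito against NLS 8 to 16 (8 without the second 25 °C library of Mito 1-copy flies), and 29 minus 18 °C in Mito 2-copies flies 5 to 10 (5 without the first 29 °C library of that strain). No direction reversed in these fits.

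Directions that reversed, as log2 differences, were at single temperatures against w1118 in Cyto flies Vha100-5 -0.31, Vha68-1 -0.083, VhaM9.7-c -0.00184 at 18 °C and Vha16-5 0.032 at 25 °C, in NLS 1-copy flies Vha100-5 -0.17, VhaM9.7-c -0.079 at 18 °C, in NLS 2-copies flies Vha100-5 -0.010 at 18 °C and Vha16-1 -0.00101 at 29 °C, in Mito 1-copy flies Vha100-1 -0.016 at 18 °C and Vha16-5 0.16, Vha14-2 0.022 at 25 °C and in Mito 2-copies flies Vha100-5 0.30 at 25 °C and Vha68-2 -0.036, VhaAC45 -0.016, VhaAC39-1 -0.040 at 29 °C. Between NLS copies these were VhaM9.7-b -0.054 at 29 °C and VhaAC39-1 0.010 at 25 °C. Between Mito copies they were Vha16-5 -0.033, Vha68-2 0.00882, VhaPPA1-1 0.022 at 18 °C and Vha68-3 -0.12, Vha16-3 -0.00137 at 25 °C. Between sites they were VhaAC39-1 -0.011 (NLS against Cyto, 25 °C), Vha100-5 0.083 (Mito against Cyto, 18 °C) and VhaM9.7-b 0.054 (Mito against Cyto, 29 °C). In w1118 alone they were Vha100-5 -0.080, Vha26 0.027 at 29 against 18 °C, VhaM9.7-d 0.067 at 25 against 18 °C and Vha14-1 0.059, Vha26 0.00189, Vha14-2 0.024, Vha100-2 -0.013, Vha100-1 -0.052 at 29 against 25 °C. Under quantile normalization it was VhaM9.7-b -0.018 at 29 against 18 °C. The cause was not tested; single temperatures and w1118 alone hold fewer libraries. The depth behind each TPM value is unknown, which limits what can be said of members of a few TPM such as Vha16-4.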
